A study of Mus musculus with 11 samples.

Results

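The 31 genes described here are the NF-kB subunits, the inhibitors and feedback genes that NF-kB switches on, and a set of its known targets. They were chosen by gene symbol, and all 31 were found among the 54532 genes of the deposited count table. They comprise 5 subunits, 3 classical inhibitors, 3 nuclear IkB-like cofactors, 3 genes of A20 and its partners, 9 of receptor signalling and survival, 3 adhesion molecules and 5 enzymes and other targets. Poly(A) RNA of whole pancreas from C57BL/6JRj mice was sequenced, 1 library per mouse by the labels. Mice were 7 weeks old (young) or 18 months old (aged). Untreated mice carry the treatment label none, with no vehicle injection stated. Treated mice received caerulein, a cholecystokinin analogue that overstimulates acinar cells, as 4 hourly intraperitoneal injections of 125 µg/kg, and their libraries are labelled 5H; the wording on timing is ambiguous, so the time is given only as that label. Of the 11 libraries, 5 were untreated (3 young, 2 aged) and 6 were from caerulein-treated mice (3 of each age). The study asked how age affects the start of pancreatitis.

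NF-kB factors are dimers of Rel-domain proteins (RelA, RelB, c-Rel, p50 from Nfkb1 and p52 from Nfkb2) that IkB proteins hold in the cytoplasm. Signals from cytokine and pattern receptors lead to IkB phosphorylation and decay, the dimers enter the nucleus, and among the first genes they switch on are those of IkB-alpha and A20, which shut the pathway down again. In the pancreas, activation of NF-kB in acinar cells is an early event of caerulein pancreatitis. Most of its regulation acts on protein, which messenger RNA does not show.

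Total counts ranged from 14223190 to 26537091 per library. Levels are CPM, counts over the TMM-scaled library total times 1e+06, and differences are log2 fold changes ± SE from a quasi-likelihood test in edgeR, with Benjamini-Hochberg adjustment across the whole table, called at an adjusted p below 0.05. The 10 acinar markers, which define the labelled tissue, summed to 48.1% to 53.5% of the unscaled library total in untreated and 39.1% to 41.0% in caerulein libraries. In such bulk samples, fewer cells of a type and less RNA per cell cannot be told apart. The library of young untreated mouse 2 stood apart: 10 B cell markers summed to 193 CPM there and to at most 1.57 CPM in the other 10 libraries, and 10 T cell markers to 108 against at most 1.90 CPM. Each of the 20 markers was highest in that library. Lymph node stroma markers other than Clu reached 50.9 against at most 0.833 CPM. Clu, also on that list, went the other way, at 576 CPM there against 695 to 2816 CPM in the other 10 libraries. Macrophage markers summed to 368 against at most 105 CPM, endothelial markers to 150.5 against at most 90.4 CPM and adipocyte markers to 465 against at most 90.5 CPM. Results are therefore given with all 11 libraries and again without that mouse.

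Promoter sequence is shown for 8 members on which the results turn: the feedback genes Nfkbia, Tnfaip3 and Tnip1, the subunits Nfkb2, Rel and Rela, and the targets Icam1 and Tnfaip2. Each line gives the 200 bases before the RefSeq start site (GRCm38.p6), 5′ to 3′ on the gene's strand, with capitals marking matches to a kB motif on either strand. The motifs searched were the 9-letter core GGANTTTCC and the degenerate decamer consensus of NF-kB, and their matches may overlap. The stretches lie at chr12:55492648-55492847 (minus strand), chr10:19015411-19015610 (minus), chr11:54962941-54963140 (minus), chr19:46304537-46304736 (plus), chr11:23770970-23771169 (minus), chr19:5637341-5637540 (plus), chr9:21015740-21015939 (plus) and chr12:111442461-111442660 (plus).
Nfkbia: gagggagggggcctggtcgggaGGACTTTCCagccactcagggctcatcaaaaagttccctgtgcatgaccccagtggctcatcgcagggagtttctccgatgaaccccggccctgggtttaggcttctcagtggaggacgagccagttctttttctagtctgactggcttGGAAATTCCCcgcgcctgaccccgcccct
Tnfaip3: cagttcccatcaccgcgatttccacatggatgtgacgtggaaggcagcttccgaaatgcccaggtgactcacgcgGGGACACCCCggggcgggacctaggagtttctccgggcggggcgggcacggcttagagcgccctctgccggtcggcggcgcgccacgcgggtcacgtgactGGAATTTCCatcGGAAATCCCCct
Tnip1: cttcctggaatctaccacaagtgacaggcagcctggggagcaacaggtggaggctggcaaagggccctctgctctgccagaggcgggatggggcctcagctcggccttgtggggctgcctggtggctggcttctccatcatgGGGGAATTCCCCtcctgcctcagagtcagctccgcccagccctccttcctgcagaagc
Nfkb2: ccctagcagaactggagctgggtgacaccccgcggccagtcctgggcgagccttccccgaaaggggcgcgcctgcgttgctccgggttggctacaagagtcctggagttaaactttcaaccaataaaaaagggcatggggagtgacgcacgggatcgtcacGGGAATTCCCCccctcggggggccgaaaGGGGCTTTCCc
Rel: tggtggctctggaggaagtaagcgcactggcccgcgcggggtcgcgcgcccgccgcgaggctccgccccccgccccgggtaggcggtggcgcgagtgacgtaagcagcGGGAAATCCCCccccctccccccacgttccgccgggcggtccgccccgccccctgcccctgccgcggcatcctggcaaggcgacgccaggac
Rela: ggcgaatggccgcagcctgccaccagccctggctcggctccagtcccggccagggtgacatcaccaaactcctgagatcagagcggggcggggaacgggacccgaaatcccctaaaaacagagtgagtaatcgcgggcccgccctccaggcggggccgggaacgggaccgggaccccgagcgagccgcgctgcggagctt
Icam1: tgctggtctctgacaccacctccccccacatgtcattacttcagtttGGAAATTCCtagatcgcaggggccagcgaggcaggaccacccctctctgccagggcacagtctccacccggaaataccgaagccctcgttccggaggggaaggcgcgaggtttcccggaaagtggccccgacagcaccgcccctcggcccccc
Tnfaip2: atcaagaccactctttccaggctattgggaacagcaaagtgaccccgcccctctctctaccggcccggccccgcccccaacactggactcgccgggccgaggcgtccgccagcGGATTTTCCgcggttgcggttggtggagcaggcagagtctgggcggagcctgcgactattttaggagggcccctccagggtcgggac

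Nfkbia held a match at 178 bases and another at 29 bases before the start. Tnfaip3 held matches at 125, 24 and 12 bases before the start shown. In Tnip1, overlapping matches on both strands lay 58 to 56 bases before the start. Rela has no capitals, which says only that neither motif occurs in these letters. Promoter windows (250 bases before to 50 after a start) were found in the RefSeq table for 23 of the 31 members. The core was in at least 1 window of 5 of the 23 (21.7%), against 1.45% of all 27025 genes in that table and 1.25% of all windows. The decamer was in 11 of the 23 (47.8%), against 5.14% of all genes and 4.51% of windows. The members were listed as known NF-kB genes, so these shares describe the list and are not independent evidence. Nfkb1, Relb, Nfkbiz, Ripk2, Cd40, Map3k8, Vcam1 and Nos2 had no entry.

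Young untreated mouse 2 had more of most members than its group mates. It was the highest of all 11 libraries for 20 of the 31 (it was highest for 20.5% of all genes passing the filter). For 24 members it was over 2-fold above the mean of mice 1 and 3, as were 15.8% of all filtered genes. Tnip3 and Ptgs2, with at most 3 reads on each side, are among the 24. The median ratio was 4.38 over the 31 members and 0.999 over all filtered genes. Tnip3, without reads in mice 1 and 3, was counted there as the highest ratio. Cd40, the B cell and dendritic cell receptor for CD40 ligand, stood at 4.56 CPM against 0.143 CPM in mice 1 and 3, and Rel, the lymphocyte-rich subunit, at 12.7 against 0.426 CPM. Traf1, an adaptor of TNF receptors, had 340 reads there and 3 reads in mice 1 and 3 together, a ratio of 159 (95% counting interval 54.0 to 776, counting error only). Bcl3 (25.2-fold), Icam1 (18.5-fold), Relb (18.0-fold) and Vcam1 (17.4-fold) followed. A few members were near their group mates in that library: Rela at 1.19 times, Ripk2 at 1.19 times, Nfkbib at 0.972 times, Nfkbiz at 0.951 times and Sod2 at 0.822 times the mean of mice 1 and 3. The part of the lymphoid transcripts in these ratios was not tested.

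**Figure D1:**
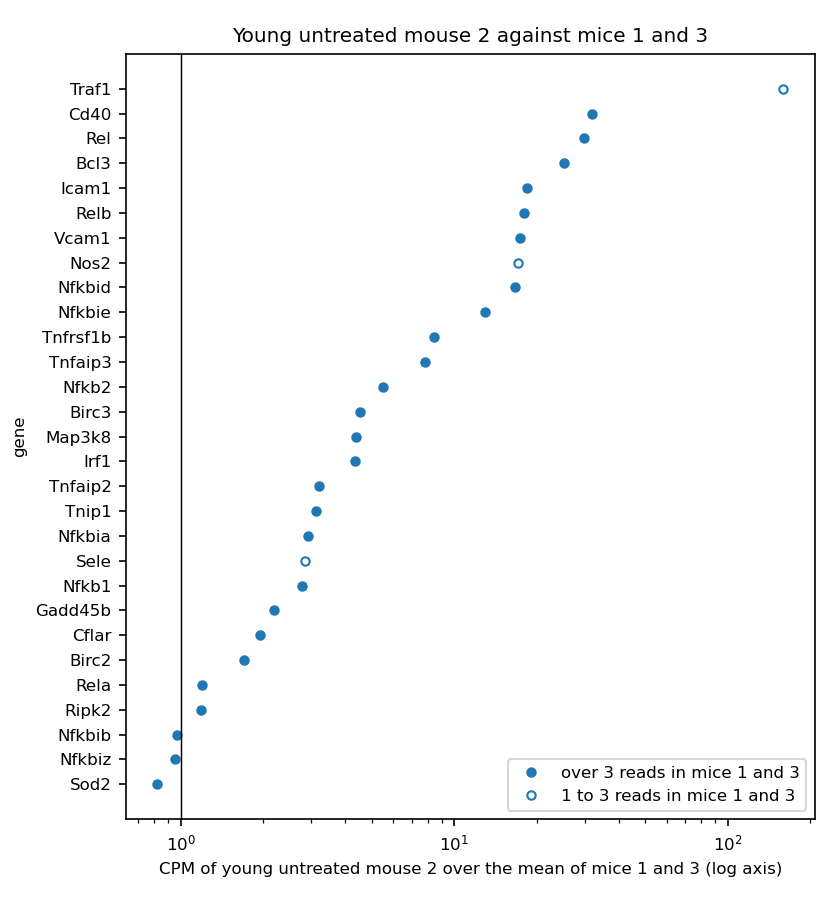
Level (CPM) of each NF-kB gene in young untreated mouse 2 divided by the mean of mice 1 and 3 on a log axis, where open points rest on 1 to 3 reads in mice 1 and 3 and the line marks a ratio of 1. Tnip3 and Ptgs2, with at most 3 reads on each side, are left out; ratios run from 0.822 (Sod2) to about 159 (Traf1).

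**Figure D2:**
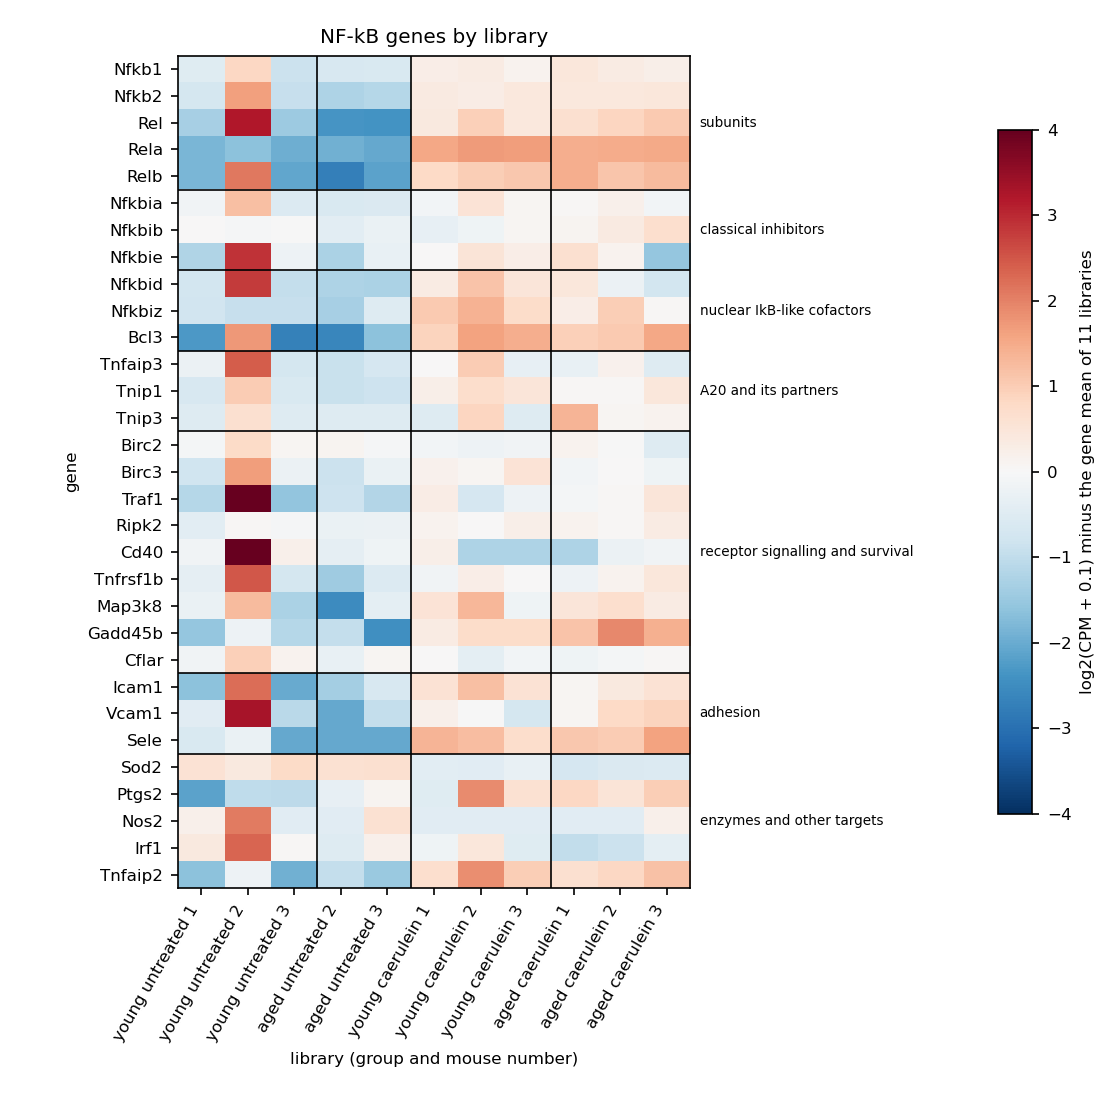
Heat map of all 31 genes (rows, grouped by role) in the 11 libraries (columns), as log2(CPM + 0.1) minus the gene's mean over all libraries. Mouse 2 of the young untreated group is the darkest red column for 20 genes, while Rela is low in all 5 untreated and high in all 6 caerulein libraries.

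Per unit of gene length, Rela was the most abundant member after caerulein. In the authors' FPKM (reads scaled by gene length and library size), Rela stood at 76.5 ± 4.43 (SD, n = 3) in young and 68.6 ± 1.51 (n = 3) in aged caerulein libraries, and Gadd45b came next with 12.5 ± 1.93 and 23.7 ± 7.02 FPKM. In young untreated mice without mouse 2 Rela (6.87 ± 0.371 FPKM, n = 2) and Nfkbia (5.17 ± 0.997 FPKM) led, and in aged untreated mice Rela (6.38 ± 0.394 FPKM, n = 2), Nfkbia (4.30 ± 0.00988 FPKM) and Nfkbib (3.51 ± 0.232 FPKM) did. Traf1, Cd40, Tnip3 and Nos2 were the 4 lowest in both caerulein groups, each at or below 0.0476 FPKM on average. Of the 31 members, 28 passed the filter on low counts and were tested, both with and without mouse 2; Tnip3, Cd40 and Nos2 did not pass.

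With all 11 libraries, 6 members rose and 1 fell after caerulein in young mice, and 6 rose and 1 fell in aged mice. Over all genes tested, 27.4% rose and 23.9% fell in young and 26.8% rose and 21.3% fell in aged mice, so the share of members called was not above that background. Rela, Nfkbiz, Gadd45b, Sele and Tnfaip2 rose at both ages, Ptgs2 was called in young and Nfkbib in aged mice, and Sod2 fell at both. Sele and Ptgs2 were low in untreated libraries, at most 0.240 and 0.379 CPM. They passed the filter on low counts only through the caerulein libraries, so a fall could hardly be called for them. Without young untreated mouse 2, 17 of the 28 rose and 1 fell in young mice, against 30.8% and 26.7% of all genes, and 17 rose and 2 fell in aged mice, against 30.7% and 27.7%. The aged count moved although mouse 2 is in neither aged group, because all groups share 1 estimate of the spread; a fit of the aged groups alone called 16 higher and 2 lower. Leaving out young untreated mouse 3 instead raised the aged count to 11 higher, and leaving out young untreated mouse 1 or 3 raised the young count of lower members to 5 or 4. Shares over all genes were not computed for these fits or for the aged groups alone. Their counts show only how the calls moved. Without young untreated mouse 2, 14 genes rose at both ages, Birc3, Nfkbid and Ptgs2 were called in young mice and Nfkbib, Tnfrsf1b and Vcam1 in aged mice. In that fit Rel, Bcl3 and Nfkbid, at most 0.596 CPM in untreated libraries, also passed the filter only through the caerulein libraries. The counts of rises thus include members that could hardly be called lower. The median log2 fold change of the tested members went from -0.14 (all genes -0.06) to 1.10 (all genes 0.01) in young mice when mouse 2 was left out, and from 1.21 (0.07) to 1.12 (0.01) in aged mice. For aged Sele, which had no untreated reads, the fitted value enters this median, and its lower bound lies on the same side. In the libraries themselves, 6 of the 28 tested members were higher in every young caerulein than in every young untreated library, where 30.7% of all tested genes were. Without mouse 2, 21 of 28 were, against 38.6% of all tested genes, and in aged mice 23 of 28 were, against 37.8%.

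**Figure D3:**
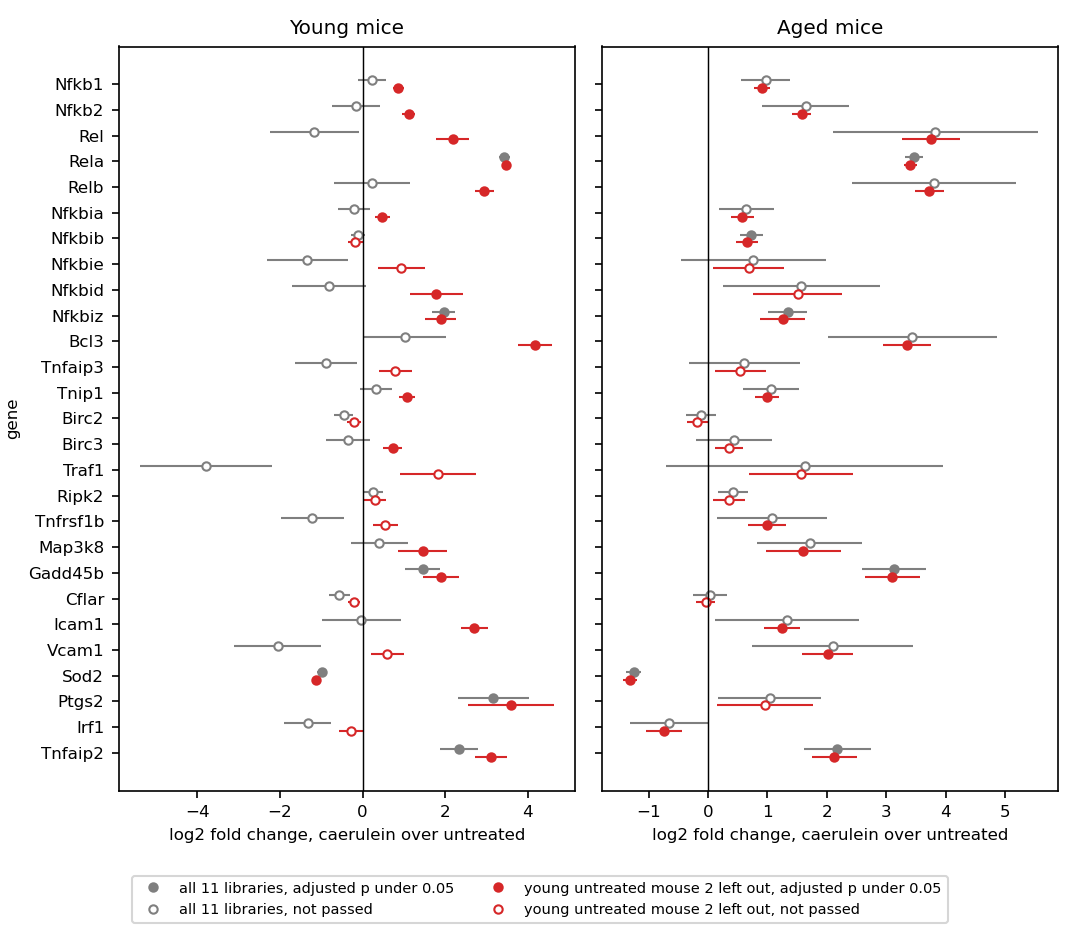
Log2 fold change of caerulein over untreated (points) ± SE (bars) for 27 tested NF-kB genes in young (left) and aged (right) mice, with all 11 libraries (grey) and without young untreated mouse 2 (red); filled points have an adjusted p under 0.05. Sele is left out for its lack of aged untreated reads, and the red young values of Traf1 and Ptgs2 rest on 3 and 2 untreated reads. In young mice many red points lie to the right of the grey ones (Relb 2.95 against 0.24).

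Among the subunits, Rela, which encodes the main activating subunit p65 (ENSMUSG00000024927, mm10 chromosome 19, 5637483 to 5648130), had the smallest error of the 5. Rela stood at 19.3, 22.1 and 17.7 CPM in young untreated mice 1, 2 and 3 and at 199.7, 222 and 218 CPM in young caerulein mice. In aged mice it stood at 17.8 and 16.6 CPM untreated and at 187, 190.5 and 194 CPM after caerulein. All treated libraries were above all untreated ones by a wide gap, mouse 2 included. Its log2 fold change was 3.44 ± 0.12 in young (adjusted p = 4.79e-09) and 3.47 ± 0.15 in aged mice (1.97e-08), and the responses differed by 0.04 ± 0.17 (adjusted p = 0.956).

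Relb, the partner of p52 in the alternative pathway (ENSMUSG00000002983, chromosome 7, 19606217 to 19629438), was at 1.18, 19.4 and 0.978 CPM in young untreated mice 1, 2 and 3. It was at 7.84, 8.81 and 9.41 CPM in young caerulein mice, at 0.588 and 0.921 CPM in aged untreated mice, and at 12.3, 9.75 and 10.7 CPM in aged caerulein mice. Mouse 2 exceeded every treated library, and the other untreated libraries were all far below them. With all libraries the log2 fold changes were 0.24 ± 0.92 (adjusted p = 0.848) in young and 3.80 ± 1.38 (adjusted p = 0.0506) in aged mice. Without mouse 2, Relb rose by 2.95 ± 0.23 (adjusted p = 4.74e-09) and 3.73 ± 0.25 (5.33e-10).

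Rel, encoding c-Rel (ENSMUSG00000020275, chromosome 11, 23736847 to 23770970), read 0.450, 12.7 and 0.403 CPM in young untreated and 1.70, 2.61 and 1.77 CPM in young caerulein mice. In aged mice it read 0.168 and 0.162 CPM untreated and 2.06, 2.44 and 2.78 CPM after caerulein. Its young log2 fold change turned from -1.17 ± 1.07 (adjusted p = 0.389) to 2.18 ± 0.40 (adjusted p = 0.000153) without mouse 2, and the aged value was 3.76 ± 0.49 (3.17e-06) in that fit. Nfkb2, the precursor of p52 (chromosome 19, 46304737 to 46312090), was also highest in mouse 2, with 4.95, 25.1 and 4.20 CPM in young untreated and 10.3, 9.92 and 10.8 CPM in young caerulein mice, and 3.36 and 3.57 CPM against 10.9, 10.8 and 10.9 CPM in aged mice. Without mouse 2 it rose by 1.12 ± 0.16 (adjusted p = 7.36e-06) and 1.58 ± 0.17 (2.25e-07); with it the young value was -0.16 ± 0.58. Nfkb1, the precursor of p50, had the smallest value of the 5 subunits in both ages without mouse 2, where it rose by 0.86 ± 0.14 (adjusted p = 2.73e-05) in young and by 0.91 ± 0.14 in aged mice (1.71e-05). With all libraries its values were 0.23 ± 0.35 and 0.97 ± 0.41, neither called. All 5 subunits thus passed at both ages without mouse 2, and Rela alone with it. Of all genes tested, 30.8% rose in young and 30.7% in aged mice without mouse 2, and 27.4% and 26.8% with it.

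**Figure D4:**
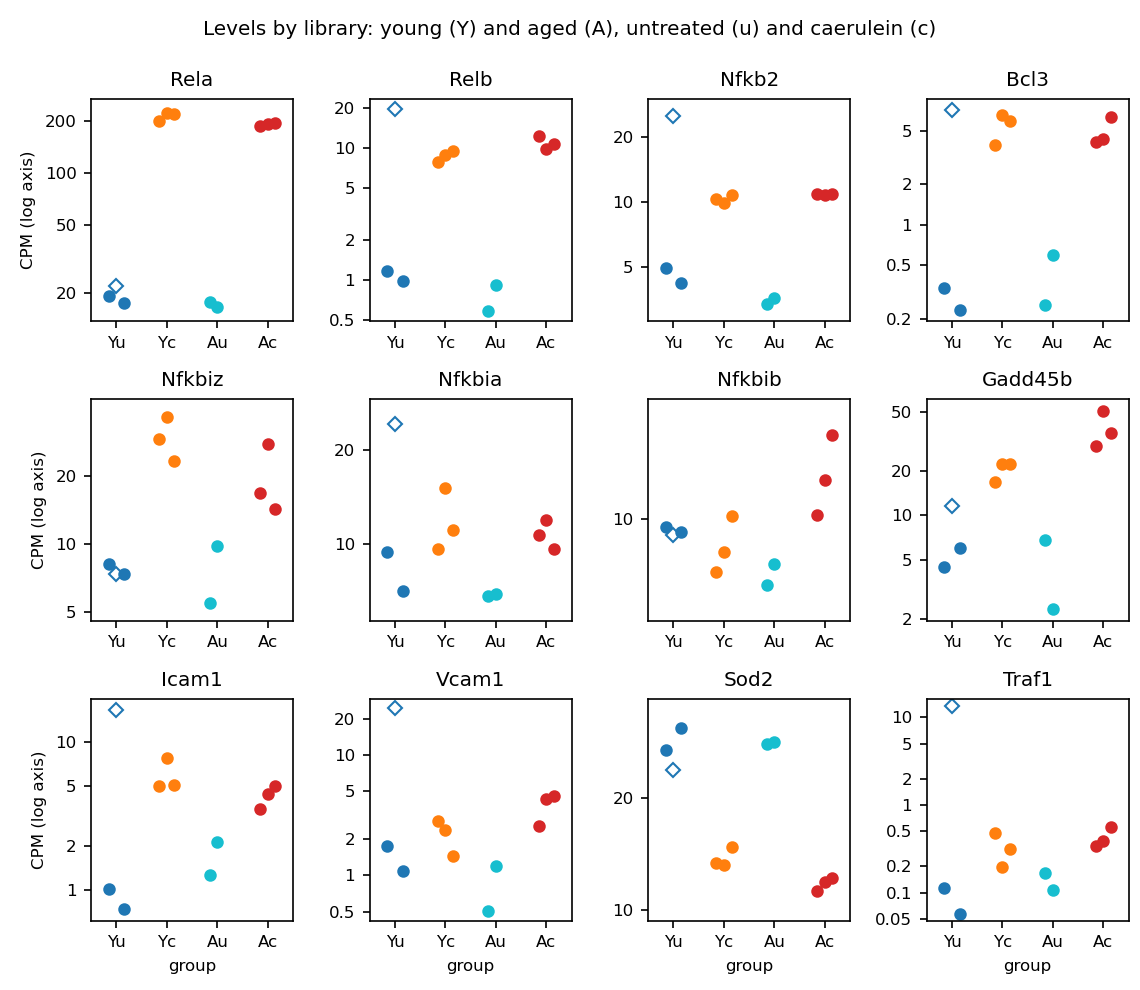
Levels (CPM, log axes) of 12 NF-kB genes in each library by group: young untreated (Yu), young caerulein (Yc), aged untreated (Au) and aged caerulein (Ac), with young untreated mouse 2 as an open diamond. For Relb, Nfkb2, Bcl3, Nfkbia, Icam1, Vcam1 and Traf1 the diamond is the highest point, while for Rela, Nfkbiz, Nfkbib, Gadd45b and Sod2 it is near or within the untreated range or below the treated points.

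The classical inhibitors hold NF-kB dimers in the cytoplasm, and their log2 fold changes were at most 0.94 without mouse 2. Nfkbia, encoding IkB-alpha (ENSMUSG00000021025, chromosome 12, 55489410 to 55492647), was at 9.44, 24.2 and 7.08 CPM in young untreated and at 9.63, 15.1 and 11.1 CPM in young caerulein mice. In aged mice it was at 6.81 and 6.93 CPM untreated and at 10.7, 11.9 and 9.66 CPM after caerulein. Treated libraries lay above untreated ones in aged mice, and in young mice only without mouse 2, by a narrow margin. Without mouse 2, Nfkbia rose by 0.48 ± 0.19 in young (adjusted p = 0.0346) and 0.58 ± 0.19 in aged mice (0.0162), beside 3.47 ± 0.11 and 3.41 ± 0.11 for Rela in the same fit. The young call was lost with the mouse number as a block (adjusted p = 0.0964) and with DESeq2 (0.0641). With all libraries, Nfkbia stood at -0.20 ± 0.39 and 0.64 ± 0.46, neither called.

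Nfkbib, encoding IkB-beta (ENSMUSG00000030595, chromosome 7, 28758251 to 28767512), stood at 9.61, 9.23 and 9.38 CPM in young untreated and 7.62, 8.46 and 10.1 CPM in young caerulein mice. Its aged libraries had 7.14 and 7.96 CPM untreated and 10.2, 12.2 and 15.4 CPM after caerulein. The young groups overlapped and the aged groups did not. Nfkbib rose in aged mice by 0.73 ± 0.19 (adjusted p = 0.00779) and had a young value of -0.11 ± 0.17 (adjusted p = 0.609); the difference between the ages, 0.84 ± 0.25, did not pass (adjusted p = 0.222, and 0.097 without mouse 2). Nfkbib overlaps Sirt2 on the opposite strand, which had 5737 counts to its 2175, and as the counting's strand setting is not given its value is uncertain. Nfkbie, encoding IkB-epsilon, was not called in either caerulein comparison, at 0.94 ± 0.58 and 0.69 ± 0.60 without mouse 2.

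The nuclear IkB-like cofactors bind p50 or p52 on DNA and modulate transcription. Nfkbiz, encoding IkB-zeta, a coactivator of secondary response genes (ENSMUSG00000035356, chromosome 16, 55811375 to 55838899), was at 8.15, 7.35 and 7.31 CPM in young untreated and 29.1, 36.6 and 23.3 CPM in young caerulein mice. Aged mice had 5.46 and 9.75 CPM untreated and 16.8, 27.5 and 14.3 CPM after caerulein. No treated library overlapped an untreated one at either age, mouse 2 included. Nfkbiz rose by 1.97 ± 0.28 in young (adjusted p = 0.000159) and 1.34 ± 0.32 in aged mice (0.00532). Its aged call was lost when the aged groups were fitted alone. Bcl3, a p50 and p52 cofactor (chromosome 7, 19808462 to 19822770), went from 0.337 and 0.230 CPM in young untreated mice 1 and 3, with 7.15 CPM in mouse 2, to 3.88, 6.56 and 5.87 CPM. In aged mice Bcl3 went from 0.252 and 0.596 CPM to 4.12, 4.34 and 6.27 CPM. Without mouse 2 it had the largest fitted rise of the 28 tested members in young mice, 4.18 ± 0.42 (adjusted p = 1.3e-07), and rose by 3.35 ± 0.40 in aged mice (1.11e-06); with all libraries the values were 1.03 ± 0.99 and 3.44 ± 1.42, neither called. Nfkbid, encoding IkBNS, was low (0.162 to 1.30 CPM outside mouse 2, which had 4.28 CPM) and rose without mouse 2 in young mice, by 1.79 ± 0.65 (adjusted p = 0.0251), a call lost with the mouse number as a block (0.0585) and with DESeq2 (0.0524).

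A20, the ubiquitin-editing brake encoded by Tnfaip3, was not called at either age in either fit. Tnfaip3 stood at 1.63, 10.9 and 1.15 CPM in young untreated, 1.96, 3.99 and 1.51 CPM in young caerulein, 1.01 and 1.19 CPM in aged untreated and 1.57, 2.19 and 1.33 CPM in aged caerulein mice. Its log2 fold changes without mouse 2 were 0.79 ± 0.41 (adjusted p = 0.104) and 0.55 ± 0.43 (0.296), and with all libraries -0.88 ± 0.75 and 0.62 ± 0.93. Tnip1, encoding the A20-binding adaptor ABIN1, was at 4.50 and 4.66 CPM in young untreated mice 1 and 3, 14.3 CPM in mouse 2, and 8.28, 11.7 and 9.98 CPM after caerulein. Without mouse 2 Tnip1 rose by 1.07 ± 0.19 (adjusted p = 0.000121) and 0.99 ± 0.20 in aged mice (0.000406). Tnip3, encoding ABIN3, had at most 7 reads in any library and was not tested.

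Of the 8 tested genes of receptor signalling and survival, Gadd45b was the 1 that passed with all libraries. Gadd45b encodes a stress-inducible regulator of the JNK and p38 pathways (ENSMUSG00000015312, chromosome 10, 80930073 to 80932204). It was at 4.50, 11.6 and 5.98 CPM in young untreated and 16.8, 22.2 and 22.2 CPM in young caerulein mice, and at 6.81 and 2.33 CPM in aged untreated and 29.1, 50.8 and 35.7 CPM in aged caerulein mice. No aged caerulein library overlapped a young caerulein one. Gadd45b rose by 1.46 ± 0.42 in young (adjusted p = 0.0169) and by 3.13 ± 0.54 in aged mice (0.00108). Leaving out young untreated mouse 3 removed the young call. The responses differed by 1.68 ± 0.66, which did not pass (adjusted p = 0.374, and 0.455 without mouse 2), and the 2 aged untreated libraries lay far apart.

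Map3k8, the kinase TPL2, rose without mouse 2 by 1.46 ± 0.59 (adjusted p = 0.0437) and 1.61 ± 0.63 in aged mice (0.0382); with the mouse number also as a block neither passed (adjusted p = 0.104 and 0.0822). Birc3, encoding the ubiquitin ligase cIAP2, was at 3.26, 18.3 and 4.83 CPM in young untreated and 6.49, 6.01 and 8.42 CPM in young caerulein mice. It rose without mouse 2 in young mice by 0.73 ± 0.23 (adjusted p = 0.012) and had 0.36 ± 0.24 in aged mice (0.21). Tnfrsf1b, TNF receptor 2, rose without mouse 2 in aged mice by 1.00 ± 0.32 (adjusted p = 0.0129) and stood at 0.55 ± 0.31 in young mice (0.133). Birc2 (cIAP1), Cflar (the caspase-8 inhibitor c-FLIP) and Ripk2 (the kinase of NOD receptors) were not called at either age, with values between -0.21 and 0.36 without mouse 2. Traf1 had 3 reads in young untreated mice 1 and 3 and 22 in the young caerulein mice, a ratio of 3.82 (95% counting interval 1.15 to 19.9), and was not called at either age. Cd40 was at or below 0.174 CPM in every library but mouse 2.

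The 3 adhesion molecules mediate leukocyte capture on endothelium. Icam1, the ligand of leukocyte integrins (ENSMUSG00000037405, chromosome 9, 21015985 to 21028817), was at 1.01, 16.3 and 0.748 CPM in young untreated and 5.05, 7.78 and 5.09 CPM in young caerulein mice. In aged mice it was at 1.26 and 2.11 CPM untreated and 3.55, 4.43 and 5.05 CPM after caerulein. Mouse 2 was above every treated library and mice 1 and 3 below all of them. With all libraries Icam1 had -0.03 ± 0.96 in young (adjusted p = 0.982) and 1.33 ± 1.21 in aged mice (0.406). Without mouse 2 it rose by 2.71 ± 0.33 (adjusted p = 1.25e-06) and 1.25 ± 0.30 (0.00168), and the difference between the ages, -1.46 ± 0.45, did not pass (adjusted p = 0.0982).

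Vcam1, the ligand of integrin alpha-4 beta-1, had 1.74, 24.7 and 1.09 CPM in young untreated and 2.83, 2.37 and 1.46 CPM in young caerulein mice, which overlapped. Its aged groups did not overlap, with 0.504 and 1.19 CPM untreated and 2.56, 4.29 and 4.61 CPM after caerulein. Without mouse 2, Vcam1 rose in aged mice by 2.02 ± 0.43 (adjusted p = 0.00055) and stood at 0.60 ± 0.39 in young mice (0.204); the difference of 1.42 ± 0.58 did not pass (adjusted p = 0.238). Sele, the endothelial E-selectin, was at 0.169, 0.240 and 0 CPM in young untreated and 0.958, 0.869 and 0.572 CPM in young caerulein mice. Both aged untreated libraries had no Sele read and the aged caerulein libraries had 0.764, 0.731 and 1.17 CPM, at least 8.76-fold higher against a floor of 3 reads over the group. Sele passed at both ages with all libraries (adjusted p = 0.0159 and 0.00231), and without mouse 2 its young ratio was 9.55 (95% counting interval 3.10 to 47.7). Beside these genes, 10 endothelial markers summed to 67.0 to 90.4 CPM in young untreated mice 1 and 3. In young caerulein mice they summed to 49.0 to 85.1 CPM. Aged mice had 70.6 to 78.0 CPM untreated and 55.7 to 63.2 CPM after caerulein. Without mouse 2, 1 of the 10 was higher and 2 lower in every young treated library, and 0 and 4 in aged mice. Of all tested genes, 38.6% and 37.8% were higher in every treated library.

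Sod2, the mitochondrial superoxide dismutase (ENSMUSG00000006818, chromosome 17, 13006846 to 13040063), was the only member that fell in both fits at both ages. It stood at 27.0, 23.7 and 30.8 CPM in young untreated and 13.4, 13.2 and 14.8 CPM in young caerulein mice, and at 27.9 and 28.2 CPM in aged untreated and 11.3, 11.9 and 12.2 CPM in aged caerulein mice. The groups were far apart at both ages. Sod2 fell by 0.98 ± 0.12 on the log2 scale in young (adjusted p = 2.86e-05) and by 1.25 ± 0.13 in aged mice (1.02e-05). Scaled by library totals alone it still fell, by 0.45 ± 0.16 (adjusted p = 0.0325) and 0.63 ± 0.17 (0.0109).

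Tnfaip2, a TNF-inducible gene of membrane nanotube formation (chromosome 12, 111442469 to 111455018), was at 1.01, 2.92 and 0.806 CPM in young untreated and 5.45, 12.4 and 6.76 CPM in young caerulein mice, and at 1.68 and 1.14 CPM against 5.31, 5.99 and 7.66 CPM in aged mice. It rose by 2.34 ± 0.47 (adjusted p = 0.00178) and 2.18 ± 0.57 (0.0084), with no overlap of treated and untreated libraries at either age. Ptgs2, encoding cyclooxygenase 2, was at 0, 0.120 and 0.115 CPM in young untreated and 0.218, 1.54 and 0.572 CPM in young caerulein mice, highest in mouse 2 of the treated group. Ptgs2 was called in young mice (3.17 ± 0.87, adjusted p = 0.00911), where without mouse 2 the ratio of 55 to 2 reads was 14.3 (95% counting interval 3.78 to 121). Leaving out young caerulein mouse 2 removed that call. In aged mice Ptgs2 was not called (1.04 ± 0.88, adjusted p = 0.359).

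Irf1, an interferon-response factor that NF-kB also induces, was at 5.56, 21.5 and 4.37 CPM in young untreated, 3.79, 5.81 and 3.01 CPM in young caerulein, 2.94 and 4.93 CPM in aged untreated and 2.10, 2.29 and 3.22 CPM in aged caerulein mice. Irf1 passed in 1 of the 4 tests (both ages, with and without mouse 2), in aged mice without mouse 2 (fell by 0.74 ± 0.31 on the log2 scale, adjusted p = 0.0487), and that call was lost there with DESeq2 (adjusted p = 0.0674), the mouse number as a block (0.0969) and library totals (0.962). Nos2, the inducible nitric oxide synthase, had no read in any young caerulein library and at most 0.480 CPM elsewhere.

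Scaling bears on the smaller values. Library totals alone, in place of TMM, moved the median of all genes by 0.50 in young and 0.62 in aged mice (0.78 and 0.68 without mouse 2), so every change above is relative to the TMM-scaled median. On that scale, without mouse 2, 26 of 28 members rose in young and 25 in aged mice, where 52.8% and 48.9% of all genes rose and 7.81% and 10.6% fell. Birc2 and Cflar at both ages, and Nfkbib and Irf1 in young mice, then changed sign.

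In the authors' deposited tables, 6 members were higher and 2 lower of 31 in young mice, where 14.2% and 12.3% of all listed genes were; the lower ones were Sod2 and Irf1 (-1.33, adjusted p = 0.0477). In aged mice the authors' deposited table had 15 higher and 1 lower, against 17.7% and 13.8% of all listed genes. That table called Relb (log2 fold change 3.78, adjusted p = 8.46e-21), Rel (3.84, 1.1e-05), Bcl3 (3.42, 2.4e-09) and Vcam1 (2.08, 0.000189) in aged mice, which the fit of all 11 libraries did not. In the authors' deposited tables for age, 0 of 31 members differed between untreated groups (0.217% of genes did) and 2 of 30 between caerulein groups (7.22%), Nfkbiz lower (-0.62, adjusted p = 0.0283) and Gadd45b higher (0.90, 3.42e-05) in aged mice.

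Levels of the members were then compared between ages. Among untreated mice, 0 members were called with all libraries (0.0496% of all genes were) and 0 without mouse 2 (0.361%). At an unadjusted p under 0.05 edgeR had 7 and 3, and DESeq2 called 0 in each. The median difference, aged minus young, was -1.28 with mouse 2 and -0.19 without it. After caerulein, 0 members were called with all libraries (3.88% of all genes), 3 had an unadjusted p under 0.05, and DESeq2 called 0. Without mouse 2, 1 was called (14.9% of all genes), Nfkbib, higher in aged mice by 0.50 ± 0.16 (adjusted p = 0.0382). Its lowest aged caerulein library (10.19 CPM) was barely above its highest young one (10.14 CPM). That call was lost with library totals in place of TMM. Gadd45b had 0.90 ± 0.33 in the TMM-scaled fit without mouse 2 (adjusted p = 0.128). It passed when the 2 caerulein groups were fitted alone (adjusted p = 0.0481). For the difference between the aged and young responses, 0 members passed with all libraries (0.0638% of all genes) and 0 without mouse 2 (3.09%). At an unadjusted p under 0.05 edgeR had 5 in each, and DESeq2 called 0 in each. The age comparisons share their control libraries with the caerulein comparisons.

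Without young untreated mouse 2, the summed neutrophil markers rose with caerulein at both ages. The summed macrophage markers separated the groups in aged mice and overlapped in young mice. The 10 neutrophil markers summed to 0.169 to 0.230 CPM in young untreated mice 1 and 3 and to 2.39 to 19.8 CPM in young caerulein mice, and to 0.162 to 0.168 against 1.17 to 1.22 CPM in aged mice; Elane was at 0 in all these libraries. Ly6g, Mpo, Camp and Ngp were at or below 0.0562 CPM there. Young untreated mouse 2 had a neutrophil sum of 6.47 CPM, within the range of the young caerulein libraries. Without mouse 2, 5 of the 10 were higher in every young treated library, against 38.6% of all tested genes. In aged mice 4 were, against 37.8%. The 10 macrophage markers summed to 46.2 to 61.2 against 53.2 to 98.0 CPM in young mice without mouse 2. In aged mice they summed to 62.8 to 69.9 against 87.1 to 105 CPM. Of the 10, 5 and 6 were higher and 2 and 1 lower in every treated library, where 38.6% and 37.8% of all tested genes were higher. B cell and T cell markers each summed to at most 1.90 CPM in every library but mouse 2 of the young untreated group. The part of these cells in the members' changes was not tested.

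Genes upstream of NF-kB were counted from a list of 44 receptors, adaptors, kinases and ubiquitin enzymes, 43 of them tested. In young mice 18 rose and 6 fell, against 27.4% and 23.9% of all genes tested, and in aged mice 19 rose and 5 fell, against 26.8% and 21.3%. Without mouse 2, 18 rose and 7 fell in young mice (30.8% and 26.7% of all genes) and 21 rose and 8 fell in aged mice (30.7% and 27.7%). Scaled by library totals alone, with all libraries, 22 rose and 2 fell in young mice (37.5% and 8.61% of all genes) and 25 rose and 1 fell in aged mice (38.5% and 7.57%). Tnfrsf1a, TNF receptor 1, went from 19.5 ± 2.33 to 68.0 ± 5.18 CPM (SD, n = 3 each) in young mice, by 1.80 ± 0.13 (adjusted p = 4.71e-07), and from 16.8 ± 2.11 (n = 2) to 73.6 ± 4.93 CPM (n = 3) in aged mice, by 2.13 ± 0.15 (6.8e-07). Bcl10, an adaptor that links receptors to the IkB kinase, rose by 1.86 ± 0.16 (adjusted p = 2.12e-06) and 2.08 ± 0.19 (4.39e-06). Rnf31, the catalytic subunit of the linear ubiquitin ligase (1.57 ± 0.13), and Tirap, a Toll-like receptor adaptor (2.40 ± 0.22), completed the 4 smallest p-values in young mice. Irak3, an inhibitory kinase-like protein of that receptor family (2.84 ± 0.22), and Tnip2, which encodes the A20-binding protein ABIN2 (2.01 ± 0.18), did so in aged mice. Of 16 secreted targets of NF-kB (cytokines, chemokines and the siderophore-binding lipocalin Lcn2), 10 were tested. Of these, 7 rose in young mice (27.4% of all genes did) and 4 in aged mice (26.8%). Without mouse 2, 9 of 9 rose in young mice (30.8%) and 5 of 9 in aged mice (30.7%). Scaled by library totals alone, with all libraries, 7 of 10 rose at each age (37.5% and 38.5%). Of the 16, 8 had no read in young untreated mice other than mouse 2, and 10 had none in aged untreated mice. Such genes could hardly pass the filter except through caerulein libraries, and a fall could not be called for them. The counts of secreted targets that rose are therefore a description of the list. The 16 genes summed to 3.37 to 18.6 CPM in young untreated, 54.7 to 105 CPM in young caerulein, 5.04 to 5.36 CPM in aged untreated and 47.0 to 72.8 CPM in aged caerulein mice. Lcn2 alone made up 37.5% to 60.6% of that sum in the caerulein libraries.

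Of the 12 tested members with a kB match in a promoter window, 8 rose in young and 7 in aged mice without mouse 2; of the 10 with a window and no match, 5 rose at each age. With all libraries, 1 of the 12 and 4 of the 10 rose at each age. Of all genes tested, 30.8% rose in young and 30.7% in aged mice without mouse 2, and 27.4% and 26.8% with all libraries. These counts are a description, with no test.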

How the data were processed

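Per the submitters' processing notes, the authors aligned reads to mm10 with HISAT2 2.0.5 and counted them per gene with featureCounts 1.5.0-p3; no source used here gives the strand setting, annotation release or read filters. The deposited table of counts holds whole-number counts, and the deposited FPKM table was used only for levels between genes. The authors' tables give log2 fold changes and adjusted p-values, per the file headers; their test is not given in the sources used here.

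Counts were filtered with filterByExpr (14113 genes kept of 54532, 13567 without young untreated mouse 2), TMM-scaled and fitted in 1 model of 4 groups in edgeR 4.0.16 (R 4.3.3), with Benjamini-Hochberg adjustment over all genes and robust quasi-likelihood tests of 5 contrasts. Only the young caerulein contrast was checked on simulated data, which had the same spread for all genes and no library like young untreated mouse 2. Alternatives were DESeq2 1.42.0, its size factors, library totals, other filters, the compared groups alone, a lymphoid covariate, the mouse number as a block, and each library left out. All 31 members are named, and the upstream genes named are the 4 with the smallest p in each caerulein comparison. Members and lists were chosen with earlier results of these data known.

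Mouse numbers are in the labels, but nothing says they mark a shared litter, batch or day. Deviations of same-numbered young untreated and caerulein libraries correlated at 0.106, 0.149 and 0.114. Correlations this small do not settle whether the numbers mark pairs, and the block is printed where it ended a call. Each group's libraries differed by more than sampling noise. Intervals are exact and the floor is 3 counts over a group; neither covers more than counting error, as PCR copies were not told apart by molecular identifiers.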

Additional observations from a re-analysis of the deposited data

How the results depend on the processing

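The count of members called in young mice after caerulein depended most on 1 library. It was 6 higher with all libraries and 5 to 17 when each library was left out in turn, and 15 with a lymphoid covariate. On its log2 scale that covariate was 8.42 in young untreated mouse 2 and at most 1.80 in the other 10 libraries. It therefore mostly marks that library and is not a check separate from leaving it out. Without young untreated mouse 2 the young count was 26 with library totals, 15 with DESeq2 and 14 with the mouse number as a replicate block. Over all genes tested, 27.4% rose in young mice with all libraries, 30.8% without mouse 2 and 52.8% with library totals as well. Shares over all genes for the other settings were not computed. The count of lower members was 1 and ran from 1 to 5 with libraries left out, and was 3 with DESeq2. In aged mice 6 were higher, 4 to 17 with libraries left out, 16 with only the groups compared and 17 with the lymphoid covariate. Without mouse 2 the aged count was 25 with library totals, 17 with DESeq2 and 16 with the replicate block. Over all genes tested, 26.8% rose in aged mice with all libraries, 30.7% without mouse 2 and 48.9% with library totals as well. The aged lower count was 1, between 1 and 2 with libraries left out, and 2 with only the groups compared. Aged against young after caerulein had 0 higher with all libraries. It had 1 with only the groups compared (Gadd45b), 1 with the lymphoid covariate (Nfkbib) and 0 to 1 with libraries left out. Without mouse 2 it had 1 with DESeq2, 2 with the replicate block and 0 with library totals. The lymphoid covariate also gave 2 lower (Icam1 and Irf1). With all libraries the replicate block called 6 higher and 1 lower in young and 7 and 1 in aged mice. Same-numbered aged untreated and caerulein libraries had correlations of 0.00513 and 0.13, too small to settle whether the numbers mark pairs. With that block and all libraries no young call changed. The promoter count was 5 members with the core and 11 with the decamer.

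Several young values changed sign. With libraries left out in turn they ran from -0.56 to 1.12 for Nfkb2, from -1.71 to 2.18 for Rel, from -0.51 to 0.48 for Nfkbia, from -1.32 to 1.79 for Nfkbid, from -0.75 to 0.73 for Birc3 and from -0.56 to 2.71 for Icam1. The positive end is in each case the value without young untreated mouse 2. With the lymphoid covariate, which mostly marks that mouse, the young values were 1.08 for Nfkb2, 2.02 for Rel, 1.71 for Nfkbid, 0.69 for Birc3 and 2.57 for Icam1. Without mouse 2, DESeq2 gave 1.11 for Nfkb2, 2.19 for Rel, 0.72 for Birc3 and 2.70 for Icam1, and the replicate block gave 1.14, 2.07, 0.79 and 2.63. Library totals without mouse 2 gave young values of 1.90 for Nfkb2, 2.96 for Rel, 1.26 for Nfkbia, 0.60 for Nfkbib, 1.72 for Nfkbie, 2.55 for Nfkbid, 1.57 for Tnfaip3, 0.58 for Birc2, 1.505 for Birc3, 2.57 for Traf1, 1.33 for Tnfrsf1b, 0.57 for Cflar, 3.48 for Icam1 and 1.38 for Vcam1, and an aged value of 0.49 for Birc2. The cause was not tested. Groups of 2 or 3 mice and levels under 1 CPM for Sele, Ptgs2, Nfkbid and Traf1 limit the precision.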
